A study of Homo sapiens with 9 samples.

Results

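The 8 genes described here, ATF4, ATF5, DDIT3, TRIB3, CHAC1, ASNS, SESN2 and PPP1R15A, belong to the integrated stress response. They were taken by gene symbol from a table of 60606 genes, and each of the 8 had exactly that symbol in the table. RNA-seq had been carried out on 3 cell lines with 3 libraries each. U87 is an established human glioblastoma line, here grown in medium with fetal bovine serum. GSCs are glioblastoma stem cells derived from U87 cells that were irradiated repeatedly and kept in serum-free medium with B27, bFGF and EGF. Diff cells go back to GSCs that were returned to serum, which made them differentiate, and were grown on from chosen clones. All 9 libraries therefore descend from 1 parental line, and U87 and Diff shared serum medium while GSCs did not. Medium, irradiation and clonal selection went together with the cell line, so their parts in any difference cannot be told apart.

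In the integrated stress response, kinases phosphorylate the initiation factor eIF2alpha when amino acids or heme run short, when misfolded proteins build up in the endoplasmic reticulum or when double-stranded RNA is present. General translation then falls, while the ATF4 transcript is translated more because of upstream open reading frames, and ATF4 protein switches on genes for amino acid supply, redox balance and, under lasting stress, cell death. ATF4 is set largely by translation, so its transcript level does not report its protein level. Tumour cells, glioblastoma cells included, are known to use this response when nutrients or oxygen are scarce.

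Levels are given in TPM, a share of all transcripts in which gene length and library total are divided out. Fold changes are differences of log2(TPM + 1), which understate the change of genes with low values. A gene is said to have risen or fallen when its adjusted p from limma was under 0.05, and to be called when its log2 fold change was also beyond 1 in either direction. Of the 60606 genes, 22909 had a mean over 1 TPM and were tested, and all 8 genes were among them, ASNS only through its level in U87, since its means in GSCs and Diff were under 1 TPM. Libraries correlated at 0.956 to 0.971 within a cell line and at 0.846 to 0.922 between lines, over all tested genes. Mitochondrial transcripts took 25.9% to 28.8% of all TPM in U87, 27.9% to 30.8% in GSCs and 30.7% to 31.8% in Diff, and the single RNA RN7SL1 took 8.77% to 9.79%, 5.73% to 7.84% and 6.67% to 8.54%. PROM1 and SOX2, stem cell markers, were highest in GSCs but low there, at most 0.596 and 0.994 TPM in any GSC library. PROM1 averaged 0.171 TPM in U87, 0.507 in GSCs and 0.0236 in Diff, and SOX2 0.0383, 0.879 and 0.153. FABP7, a marker of neural precursors, averaged 0.731 TPM in U87, 4.91 in GSCs and 2.86 in Diff. NES, a further stem cell marker, went the other way, at 33, 22.6 and 13.5 TPM in the same order. Of 7 tested stem and neural markers, 1 rose and 2 fell in GSCs against U87 and 2 rose and 3 fell in Diff. The shares over all tested genes are given in the next paragraph. Over 7 markers of blood, endothelial, muscle and epithelial cells the summed level was 9.42 to 10.3 TPM in U87, 21.6 to 23.8 in GSCs and 9.52 to 10.5 in Diff, with VWF, made by endothelial cells, at 11.4 TPM on average in GSCs and PTPRC, made by blood cells, at 0.137 TPM or less in every library. The other endothelial markers on that list did not go together. PECAM1 averaged 2.77 TPM in U87, 6.25 in GSCs and 2.92 in Diff, and CDH5 0.223, 0.312 and 0.225 TPM. The part of these markers in the results below was not tested.

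Most of the 8 genes were lower in both derived lines than in U87. In Diff against U87, 6 of 8 fell and none rose, where 20.5% of all tested genes fell and 18.9% rose, and 5 of 8 were called lower, where 6.36% of all tested genes were called lower and 5.92% higher. In GSCs against U87, 7 of 8 fell and all 7 were called, while 1 rose. Among all tested genes 23.3% fell and 25.3% rose in GSCs, and 7.53% were called lower and 9.52% higher. The median log2 fold change of the 8 genes was -1.47 in Diff and -2.01 in GSCs, against -0.04 and 0.02 over all tested genes. Without ASNS, whose entry into the test required a high level in U87, 5 of 7 fell in Diff (4 called) and 6 of 7 fell in GSCs (6 called), at medians of -1.20 and -1.93. ATF4 in GSCs was no longer called without GSCs replicate 3, where its log2 fold change was -0.999. Both comparisons share the 3 U87 libraries. In Diff against GSCs, 4 of 8 rose and none fell, where 15% of all tested genes rose and 19.8% fell, and 2 were called higher, where 2.66% of tested genes were called higher and 5.36% lower. Fewer cells with a transcript and less of it per cell cannot be told apart in these bulk libraries.

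ATF4, the bZIP transcription factor at the centre of the response, was the most abundant of the 8. It was at 407, 360 and 434 TPM in the U87 libraries, at 213, 187 and 173 TPM in the GSC libraries and at 163, 171 and 186 TPM in the Diff libraries. Every U87 library was above every other library, while GSC and Diff values overlapped. U87 averaged 401 ± 37.4 TPM and Diff 173 ± 12 TPM (SD, n = 3), and the log2 fold change was -1.20 ± 0.10 (SE, adjusted p = 1.84e-05). GSCs averaged 191 ± 20.3 TPM, with a log2 fold change of -1.07 (adjusted p = 2.66e-05). The interval for Diff against GSCs ran from -0.36 to 0.08, and that difference did not pass the test (adjusted p = 0.314). ATF4 and PPP1R15A were the only ones of the 8 with a lower mean in Diff than in GSCs, and neither difference passed the test.

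ATF5, a bZIP factor that is also controlled by upstream reading frames and is known for the mitochondrial branch of stress signalling, was at 45, 50.4 and 33.1 TPM in U87. GSC libraries held 10.8, 10.9 and 9.27 TPM and Diff libraries 25.2, 23 and 24.7 TPM. The 3 lines did not overlap and Diff lay between the other two. The log2 fold change was -0.77 ± 0.14 in Diff (SE, adjusted p = 0.0025) and -1.93 in GSCs (adjusted p = 7.33e-06), both against U87. Between Diff and GSCs it was 1.16 (adjusted p = 0.00037), so ATF5 was 1 of the 2 genes called higher in Diff.

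DDIT3, which encodes CHOP, a bZIP factor known for driving cell death under lasting endoplasmic reticulum stress, was at 12.4, 14.6 and 12.4 TPM in U87. It was at 5.33, 6.5 and 3.44 TPM in GSCs and at 8.53, 9.72 and 9.91 TPM in Diff. All U87 libraries were above all Diff libraries, and all Diff libraries above all GSC libraries. DDIT3 fell in GSCs, with a log2 fold change of -1.24 ± 0.18 (SE, adjusted p = 0.000488). In Diff against U87 the log2 fold change was -0.44, with a 95% interval from -0.85 to -0.03, and did not pass the test (adjusted p = 0.0856). It did pass when only the U87 and Diff libraries were fitted (adjusted p = 0.011) and when GSCs replicate 3 or replicate 2 was left out (adjusted p = 0.0114 and 0.0464). DDIT3 was higher in Diff than in GSCs (log2 fold change 0.80, adjusted p = 0.00875).

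TRIB3, a pseudokinase induced by ATF4 and CHOP that binds ATF4 and restrains it, fell strongly in both derived lines. Its U87 libraries held 41.7, 34.4 and 30 TPM, its GSC libraries 3.13, 3.14 and 2.48 TPM and its Diff libraries 4.48, 4.86 and 6.58 TPM. The log2 fold change was -3.21 ± 0.16 in GSCs (SE, adjusted p = 8.03e-07) and -2.53 in Diff (adjusted p = 4.77e-06). Only 0.725% of tested genes had as low a value as TRIB3 in Diff and 0.301% in GSCs. TRIB3 was higher in Diff than in GSCs, by 0.68 on the log2 scale (adjusted p = 0.0114).

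CHAC1, an enzyme that breaks down glutathione, was at 36.6, 25.4 and 53.8 TPM in U87, the widest spread of the 8 in that line on the log2 scale. GSC libraries held 3.19, 4.59 and 1.54 TPM and Diff libraries 4.36, 4.26 and 5.18 TPM, so GSCs and Diff overlapped and both were far below U87. The log2 fold changes of -3.28 ± 0.32 in GSCs (SE, adjusted p = 4.25e-05) and -2.76 in Diff (adjusted p = 0.000167) were the largest drops among the 8 genes in both comparisons on the log2(TPM + 1) scale. Between Diff and GSCs the interval ran from -0.21 to 1.25 on the log2 scale (adjusted p = 0.251).

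ASNS, the synthetase that makes asparagine from aspartate and glutamine, was low throughout, at 5.64, 3.39 and 5.82 TPM in U87. It was at 0.445, 0.481 and 0.204 TPM in GSCs and at 0.807, 0.53 and 0.591 TPM in Diff. Derived lines were below 1 TPM in every library, and the lowest Diff library was above the highest GSC library. Means fell from 4.95 ± 1.36 TPM in U87 to 0.377 ± 0.151 TPM in GSCs and 0.643 ± 0.145 TPM in Diff (SD, n = 3). Because ASNS was tested only through its level in U87, its difference from U87 is given as a description. On the log2(TPM + 1) scale it was -2.09 in GSCs and -1.83 in Diff. With a pseudocount of 0.1 in place of 1 they were -3.42 and -2.74. Between Diff and GSCs the difference of 0.26 had an interval from -0.21 to 0.72 (adjusted p = 0.371).

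SESN2, a sestrin that binds leucine and holds back the growth kinase complex TORC1, was at 158, 132 and 151 TPM in U87. The GSC libraries had 19, 21.9 and 15.7 TPM and the Diff libraries 42.7, 41.5 and 46.7 TPM. No library of 1 line reached the range of another, with U87 highest and GSCs lowest. SESN2 fell by 2.91 on the log2 scale in GSCs (SE 0.12, adjusted p = 2.39e-07) and by 1.73 in Diff (adjusted p = 7e-06). It was 1.18 higher in Diff than in GSCs (adjusted p = 0.000123), the largest rise of the 8 in that comparison.

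PPP1R15A, which encodes GADD34, the stress-induced subunit that brings protein phosphatase 1 to eIF2alpha and so ends the response, did not follow the other genes. It was at 68.9, 77.4 and 58 TPM in U87, at 97.3, 100 and 73.2 TPM in GSCs and at 80.1, 75.7 and 76.3 TPM in Diff. GSC and U87 libraries overlapped because of the single GSC library at 73.2 TPM, and U87 and Diff libraries overlapped too. PPP1R15A rose in GSCs against U87 with a log2 fold change of 0.40 ± 0.13 (SE, adjusted p = 0.0366). That call was lost in 11 alternatives, 7 of which left out 1 library (any Diff library, GSCs replicate 1 or 2, U87 replicate 1 or 3), with adjusted p from 0.0516 to 0.121. The differences of 0.19 between Diff and U87 and of -0.21 between Diff and GSCs did not pass the test (adjusted p = 0.301 and 0.275), but without GSCs replicate 3 the latter became -0.35 (adjusted p = 0.0378).

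**Figure D1:**
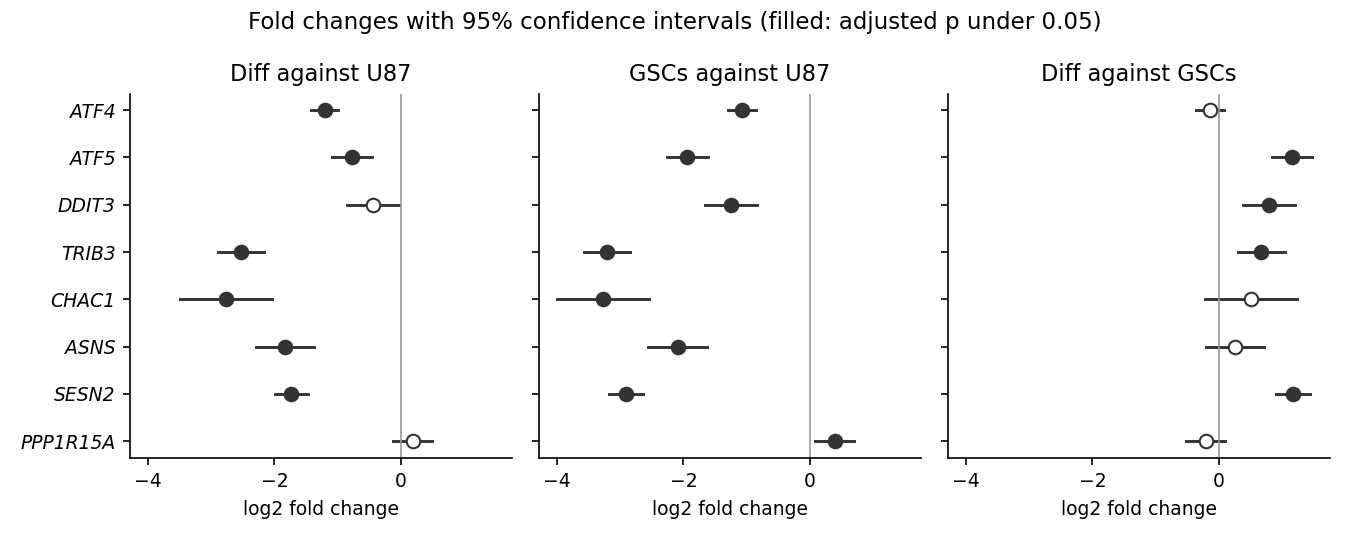
Log2 fold changes on the log2(TPM + 1) scale (horizontal axis) of the 8 genes in the 3 comparisons, with 95% confidence intervals from limma. Filled circles have an adjusted p under 0.05. All circles for GSCs against U87 are filled and 7 lie to the left of 0, while 4 circles for Diff against GSCs are filled and lie to the right of 0.

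The order of the 3 lines was U87, then Diff, then GSCs for ATF5, DDIT3, TRIB3, CHAC1, ASNS and SESN2. For ATF4, U87 came first and GSCs and Diff did not differ beyond their spread. Neighbours in that order differed past the test at both steps for ATF5, TRIB3 and SESN2, only between Diff and GSCs for DDIT3, and only between U87 and Diff for CHAC1 and for ASNS, with the limit on its test given above. Over the 9 libraries the 7 genes without PPP1R15A correlated with each other at r = 0.659 to 0.987 in 21 pairs, and PPP1R15A correlated with them at -0.687 to -0.473. These values describe 9 libraries that fall into 3 lines. After each line's mean was subtracted, the range over the 21 pairs was -0.401 to 0.868, and the range over the 7 pairs with PPP1R15A was -0.117 to 0.862, with 5 of 7 above 0. GSCs replicate 3 was the lowest GSC library for 8 of the 8 genes, with deviations from the line's mean of -0.62 for CHAC1, -0.42 for DDIT3 and -0.29 for PPP1R15A on the log2 scale. Whether this library differs for a technical reason was not tested.

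Genes that moved most like the 8 were sought among tested genes with a mean over 5 TPM, by Pearson's r over the 9 libraries. The mean standardized level of the 8 genes was matched most closely by ARF1 (r = 0.998), TUBB6, DOT1L, FOSL1 and SERPINH1. ARF1 averaged 262, 166 and 190 TPM in U87, GSCs and Diff. For ATF4 alone the closest were SOCS1 (r = 0.994), LINC02120 and CPNE1, and SOCS1 averaged 34, 7.04 and 5.24 TPM in the same order. For TRIB3 the closest were RTL9, the serine synthesis enzyme PHGDH and the leucine transporter SLC7A5 (r = 0.995), and for SESN2 they were WDR1, SERTAD1 and ARHGEF2. PPP1R15A had weaker matches, led by FSTL3 (r = 0.955).

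The sequences just before the transcription starts were searched because ATF4 binds DNA together with C/EBP factors at a composite of a C/EBP site and an ATF site. The letters searched were TGATGNAA, on both strands, and the palindrome TGACGTCA, the cyclic AMP response element bound by related factors, which does not overlap with the first in any case shown. The 250 bases before each start in RefSeq (GRCh38.p14) were used. All 8 genes had such windows, 15 in all, and the composite was found for ASNS and CHAC1 and the palindrome for PPP1R15A. Among all 27305 genes with windows, 3.89% held the composite and 2.03% the palindrome, and among all 35116 windows 3.14% and 1.65%. The 30 bases around each match are given in the orientation in which the composite reads as TGATGNAA, 5′ to 3′, with the matched letters in capitals.
ASNS (chr7:97872458-97872487, minus strand): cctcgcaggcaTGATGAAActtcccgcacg
CHAC1 (chr15:40953251-40953280, minus strand): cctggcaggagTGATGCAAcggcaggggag
PPP1R15A (chr19:48872352-48872381, plus strand): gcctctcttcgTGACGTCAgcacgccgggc

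The match of ASNS lay on the gene's strand, 68 to 61 bases before a RefSeq start, and that element is known as a nutrient-sensing response element of this gene. In CHAC1 it lay on the other strand, 209 to 202 bases before the RefSeq start, and in PPP1R15A the palindrome lay 58 to 51 bases before. Annotated exons of other transcripts reach into such windows, so a match need not lie outside every transcript. The matches of ASNS and CHAC1 lay inside the annotated GENCODE spans of these genes, while that of PPP1R15A lay outside its span. ASNS and CHAC1 were both lower in the derived lines. ATF4, ATF5, SESN2 and TRIB3, without the letters in these windows, also fell in both, and DDIT3, likewise without them, fell in GSCs. A match is a description of letters and not of binding.

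None of the 4 kinases that start the response fell in either derived line. EIF2AK1, the heme-regulated kinase HRI, was at 111, 113 and 105 TPM in U87, 233, 211 and 246 TPM in GSCs and 181, 175 and 178 TPM in Diff, with no overlap. It rose by 1.06 in GSCs (adjusted p = 1.95e-06) and by 0.70 in Diff (adjusted p = 3.38e-05). EIF2AK3, the endoplasmic reticulum kinase PERK, rose in GSCs by 0.51 (adjusted p = 0.00599), and EIF2AK4, the amino acid sensing kinase GCN2, rose by 0.42 in GSCs (adjusted p = 0.00121) and by 0.24 in Diff (adjusted p = 0.0256). The rise of EIF2AK4 in Diff was lost in 6 of 18 alternatives, without a trend or without any 1 Diff library or U87 replicate 1 or 2 (adjusted p up to 0.0885). EIF2AK2, the double-stranded RNA kinase PKR, gave 0.05 and 0.08 (adjusted p = 0.69 and 0.561). A list of 6 proteins, here called kinase relays, holds some that carry signals to the kinases and some that restrain them. Of these, 3 rose and 1 fell in GSCs and 2 rose and 1 fell in Diff. Among all tested genes 25.3% rose and 23.3% fell in GSCs, and 18.9% rose and 20.5% fell in Diff. IMPACT, which restrains GCN2, rose in both (0.88 and 0.40), PRKRA, which activates PKR, fell in both (-0.28 and -0.54), and GCN1, the activator of GCN2, rose in both (0.14 and 0.28). DELE1, which carries the mitochondrial signal to HRI, rose in GSCs (0.25), OMA1, the protease that cleaves DELE1, gave 0.48 and 0.39 (adjusted p = 0.0591 and 0.126), and DNAJC3 gave -0.03 and 0.05. In GSCs the calls of GCN1 (adjusted p = 0.0498), PRKRA (0.0412) and DELE1 (0.0353) were lost in 15, 10 and 9 of 18 alternatives, with adjusted p up to 0.169, 0.133 and 0.114. Leaving out 1 library sufficed, which held for Diff replicate 3, GSCs replicate 1 or 2 and U87 replicate 2 or 3 with each of these genes.

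Of the 8 subunits of eIF2 and its exchange factor eIF2B, 5 fell and 1 rose in GSCs, where 23.3% of all tested genes fell and 25.3% rose, and the median was -0.44. In Diff 2 of 8 fell and none rose, close to the 20.5% of all tested genes that fell, and the median was -0.19. EIF2S2, the beta subunit, fell most, by 1.14 in GSCs and 0.91 in Diff, and EIF2B2 fell by 0.55 and 0.60. EIF2S1, the subunit that is phosphorylated, fell in GSCs (-0.48, adjusted p = 0.0153) and gave -0.37 in Diff (adjusted p = 0.0539). EIF2B1 (-0.41) and EIF2B3 (-0.66) fell and EIF2B4 (0.20) rose in GSCs, while EIF2S3 and EIF2B5 passed in neither comparison. The rise of EIF2B4 was lost in 6 of 18 alternatives and the fall of EIF2S1 in 1. Among the phosphatase genes, the 4 other than PPP1R15A fell in both derived lines, with marginal calls named below. PPP1CC, a catalytic subunit, fell by 1.17 in GSCs and 1.16 in Diff, PPP1CA by 1.18 and 0.52 and PPP1CB by 0.42 and 0.55. PPP1R15B, a constitutive subunit with the same role as PPP1R15A, fell by 0.37 and 0.25. The fall of PPP1R15B in Diff (adjusted p = 0.0439) was lost in 10 of 18 alternatives, among them no filter, no trend and leaving out GSCs replicate 1 or any 1 Diff or U87 library (adjusted p up to 0.126). The fall of PPP1CB in GSCs (adjusted p = 0.0333) was lost in 7, among them leaving out GSCs replicate 1 or 2 or any 1 U87 library (adjusted p up to 0.0941).

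Among 11 bZIP factors that pair with ATF4 or share its sites, 10 were tested, and 4 rose and 4 fell in GSCs while 2 rose and 4 fell in Diff. Over all tested genes 25.3% rose and 23.3% fell in GSCs, and 18.9% rose and 20.5% fell in Diff. ATF3, itself induced by ATF4, was at 7.21, 6.99 and 8.31 TPM in U87, 30.7, 33 and 25.9 TPM in GSCs and 6.44, 7.03 and 6.48 TPM in Diff. GSCs thus stood above both other lines. ATF3 rose by 1.86 in GSCs (adjusted p = 1.74e-06) and was 2.00 lower in Diff than in GSCs (log2 fold change -2.00, adjusted p = 4.13e-06). FOS, an immediate early gene, rose in GSCs by 2.02 and CEBPD by 1.26. JDP2, a repressor of the ATF family, fell in GSCs by 1.58 and gave -0.16 in Diff (adjusted p = 0.356).

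Genes for amino acid supply, which ATF4 is known to switch on, fell widely. Of 12 synthesis genes 11 were tested, and 9 fell in Diff and 7 in GSCs with none higher, at medians of -0.88 and -1.29. The shares of all tested genes that fell were 20.5% in Diff and 23.3% in GSCs. PYCR1, named for its instability, fell in Diff at an adjusted p of 0.0493, lost in 14 of 18 alternatives (adjusted p up to 0.147). PSAT1, a step in serine synthesis, was at 378, 395 and 270 TPM in U87, 17.8, 18.1 and 23.4 TPM in GSCs and 70.7, 71.1 and 87.2 TPM in Diff. All U87 libraries were above all Diff libraries and these above all GSC libraries. PSAT1 fell by 4.06 in GSCs (adjusted p = 2.44e-07) with -2.16 in Diff (adjusted p = 1.37e-05), and was 1.90 higher in Diff than in GSCs. MTHFD2, of mitochondrial folate metabolism, fell by 1.94 and 1.86 and the alanine transaminase GPT2 by 1.92 in GSCs and 1.93 in Diff. The 25 tested genes on each side of MTHFD2 were lower too, with medians of -0.809 in GSCs and -0.825 in Diff. Relative to them its change was -1.13 in GSCs and -1.04 in Diff.

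Of 10 amino acid transporters 9 were tested, and 8 fell in Diff and 7 in GSCs, at medians of -1.09 and -1.68. Among all tested genes 20.5% fell in Diff and 23.3% in GSCs. The fall of SLC38A2 in Diff (adjusted p = 0.0217), named for its instability, was lost in 4 of 18 alternatives. SLC7A5, the leucine transporter, was at 458, 436 and 353 TPM in U87, 14.8, 15.1 and 11 TPM in GSCs and 31.9, 37.2 and 44.8 TPM in Diff. It fell by 4.83 in GSCs (adjusted p = 8.04e-08) with -3.42 in Diff (adjusted p = 8.47e-07). SLC7A11, which imports cystine for glutathione, averaged 48.1 TPM in U87, 1.39 in GSCs and 6.02 in Diff, with log2 fold changes of -4.37 in GSCs and -2.81 in Diff. The glycine transporter SLC6A9 fell from 24.3 TPM in U87 to 1.41 in GSCs and 1.56 in Diff. SLC43A1 went the other way, with a rise of 0.57 in GSCs and 0.61 in Diff, chosen for mention after its values were seen. In Diff against GSCs 4 transporters rose and none fell, SLC7A11 by 1.55, SLC7A5 by 1.41 and SLC7A1, a carrier of cationic amino acids, by 1.17. Among all tested genes 15% rose and 19.8% fell in that comparison.

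Cytosolic aminoacyl-tRNA synthetases load amino acids onto tRNAs, and part of them are known ATF4 targets. Of the 13 genes listed as targets, including the tRNA exporter XPOT, 12 fell in Diff and 12 fell in GSCs, at medians of -0.90 and -1.29. Among all tested genes 20.5% fell in Diff and 23.3% in GSCs. The falls of LARS1 and XPOT in Diff were lost in 3 and 4 of 18 alternatives. WARS1, for tryptophan, was at 206, 227 and 161 TPM in U87, 31.9, 29.5 and 34 TPM in GSCs and 79.3, 91.2 and 94.7 TPM in Diff, with no overlap between lines. It fell by 2.59 in GSCs (adjusted p = 7.09e-07) and by 1.14 in Diff (adjusted p = 0.000127). In Diff against GSCs 10 of the 13 rose and 1 fell, where 15% of all tested genes rose and 19.8% fell. The rise of GARS1 (adjusted p = 0.0497) and the fall of LARS1 (0.0447) were each lost in 12 of 18 alternatives. Of the 8 synthetases not counted as targets, 2 fell and 1 rose in Diff and 4 fell and 1 rose in GSCs, at medians of -0.10 and -0.22. HARS1 fell in Diff (-0.35), while FARSA, HARS1, KARS1 and VARS1 fell in GSCs (-0.29, -0.74, -0.18 and -0.59) and QARS1 rose in both (0.45 in Diff, 0.54 in GSCs). FARSB and RARS1 passed in neither. The calls of HARS1 in Diff, FARSA in GSCs and KARS1 in GSCs were lost in 5, 11 and 3 of 18 alternatives. The difference between these lists was not tested.

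The remaining ATF4 and CHOP targets moved in both directions. Of 20 genes 18 were tested, and 9 fell and 4 rose in Diff, while 11 fell and 4 rose in GSCs. Among all tested genes 20.5% fell and 18.9% rose in Diff, and 23.3% fell and 25.3% rose in GSCs. Medians of the tested targets were -0.32 in Diff and -0.95 in GSCs. DDIT4, an inhibitor of TORC1, was at 635, 534 and 698 TPM in U87, 149, 141 and 91.2 TPM in GSCs and 25.6, 34.4 and 36.8 TPM in Diff, so here Diff was the lowest line. Its log2 fold change was -4.24 in Diff (adjusted p = 1.04e-06) and -2.31 in GSCs (adjusted p = 2.35e-05). VLDLR, a lipoprotein receptor, fell by 3.00 in Diff and 3.02 in GSCs, and VEGFA, the angiogenic growth factor, by 2.15 and 1.09. KLHL24, a ubiquitin ligase adaptor, rose by 2.09 in Diff and 2.15 in GSCs. GDF15, a secreted stress factor, was 1.43 higher in Diff than in GSCs.

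**Figure D2:**
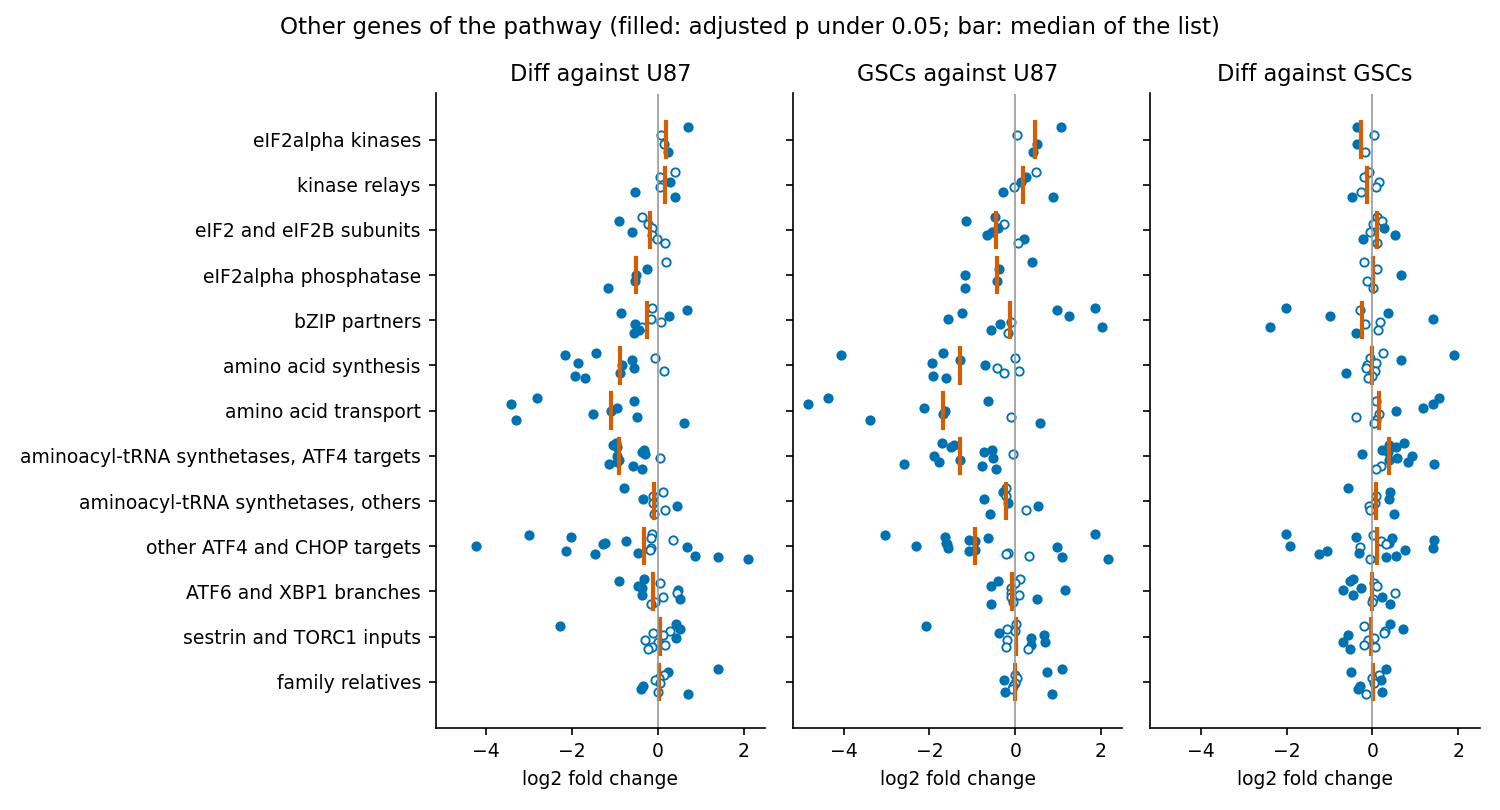
Log2 fold changes on the log2(TPM + 1) scale (horizontal axis) of the tested genes of 13 lists (vertical axis) in the 3 comparisons. Circles are genes, filled where the adjusted p was under 0.05, and the bar is the list's median, which lay at -1.68 for amino acid transport and at 0.46 for the eIF2alpha kinases in GSCs against U87. PPP1R15A is drawn in the phosphatase list, and genes on more than 1 list are drawn in each.

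The composite letters were also found before a RefSeq start of 8 further genes of the 4 target lists. For SLC1A5, GARS1, IARS1 and JDP2 the match lay inside the gene's annotated GENCODE span. The start it precedes is therefore an internal one and not the outermost start of the gene. They were present in 3 of 11 tRNA synthetase targets with windows, 4 of 15 other targets, 1 of 8 transporters and 0 of 7 synthesis genes, against the 3.89% of all genes given above. The sites are shown to set beside those of ASNS and CHAC1, in the same orientation.
AARS1 (chr16:70289675-70289704, plus strand): tctaacttggcTGATGCAActgcgagaaaa
IARS1 (chr9:92293692-92293721, plus strand): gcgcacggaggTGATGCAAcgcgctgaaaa
GARS1 (chr7:30594834-30594863, minus strand): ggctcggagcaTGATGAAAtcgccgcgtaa
SLC1A5 (chr19:46784893-46784922, minus strand): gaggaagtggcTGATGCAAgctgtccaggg
HERPUD1 (chr16:56931955-56931984, minus strand): tgggcacgggcTGATGCAAcccgccgcgtc
JDP2 (chr14:75427995-75428024, plus strand): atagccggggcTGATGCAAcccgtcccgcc
ATF3 (chr1:212565205-212565234, plus strand): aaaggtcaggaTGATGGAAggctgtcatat
FGF21 (chr19:48755459-48755488, minus strand): ctcctcctcccTGATGCAAtcctggtgttt

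Of these genes, AARS1 fell by 1.71 in GSCs and 0.97 in Diff, IARS1 by 0.73 and 0.37, GARS1 by 0.55 and 0.32, SLC1A5 by 1.68 and 1.52 and HERPUD1 by 0.95 and 0.76. JDP2 fell and ATF3 rose in GSCs, as given above, and in Diff against GSCs they changed by 1.42 and -2.00. FGF21 was listed at 0 in 8 of the 9 libraries. Among the tested genes shown with these letters, the only rise against U87 was that of ATF3 in GSCs. In Diff against U87 none rose, with ATF3 at -0.15 and JDP2 at -0.16.

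Each gene's position and its neighbours on the chromosome were examined because genes on a gained or lost chromosome part can move together. Copy number was not measured. Positions are those of GENCODE 29 on GRCh38. SESN2 lies at chr1:28259527-28282491, ASNS at chr7:97852118-97872542, DDIT3 at chr12:57516588-57521737 and CHAC1 at chr15:40952962-40956519. PPP1R15A lies at chr19:48872392-48876057, ATF5 at chr19:49928702-49933935, TRIB3 at chr20:362835-397559 and ATF4 at chr22:39519695-39522685. All are protein-coding. The median log2 fold change of the 25 tested genes on each side, for TRIB3 of 30 in all near the chromosome's end, lay between -0.21 and 0.29 in Diff and between -0.16 and 0.53 in GSCs. TRIB3 and CHAC1 were lower than every one of their neighbours in both comparisons. ASNS was lower than 49 of 50 while its neighbours were on the whole higher, with medians of 0.29 and 0.53, and relative to them its change was -2.12 in Diff and -2.62 in GSCs. PPP1R15A in Diff lay at the median of its neighbours, with 25 below and 25 above. DDIT3 in Diff was undercut by 16 of 50. For EIF2AK1 the neighbours on chromosome 7 had medians of 0.36 in Diff and 0.37 in GSCs, about which its own rise stood 0.34 and 0.70 higher.

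Parts of 3 of the genes are shared with other annotated genes. In GENCODE 29, 44.6% of the exon bases of ASNS are shared on the same strand with ENSG00000284707, which was at 0.502 to 1.15 TPM in all libraries. Of DDIT3, 27.2% lie opposite exons of MARS1, which fell from 96.5 TPM in U87 to 25.3 in GSCs and 49.1 in Diff, and of ATF5, 21.2% lie opposite NUP62, at 41.5 to 79.8 TPM. The libraries were directional, but the strand setting used for counting is not given in the sources used here, so reads of opposite genes may not have been told apart and the values of DDIT3 and ATF5 are uncertain to that extent. For ASNS the shared bases are on the same strand, and how reads there were assigned is not given in the sources used here either, so its values are uncertain too. Processed pseudogenes of ATF4 and ASNS found in the table were at 1.1 TPM or less in every library.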

How the data were processed

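The authors deposited log2(TPM + 1) values for 60606 genes in 9 libraries of the cell lines U87, GSCs and Diff (3 each). Per the labels, rRNA was removed and directional paired-end libraries were sequenced. The methods of the paper instead describe enrichment of mRNA on oligo(dT) beads, and which of these applies is not known here. The submitters' processing notes name FastQC 0.11.9, Trimmomatic 0.39, HISAT2 2.2.1, featureCounts 2.0.5, R 4.2.0 and GRCh38. The annotation is not given in the sources used here. Read counts were not used here, so depth is unknown, no counting interval is given, and precision rests on the spread of 3 libraries.

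Tests used limma 3.58.1 (R 4.3.3) on the 22909 genes averaging over 1 TPM, in a single fit of all lines with a trend, and p-values were adjusted by Benjamini-Hochberg per comparison. The script was tested on simulated data. The study speaks of biological replicates in general but does not name the RNA-seq there, and the labels do not say that libraries were separate cultures, so p-values measure only the spread between these libraries, which may be technical. Replicate numbers are shared between lines but no source pairs them.

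The 8 genes and all gene lists were chosen with earlier results of these data known. Named were the 8 genes, all genes of lists with up to 8 genes, and from longer lists up to 4 called genes per comparison with the largest change, with exceptions stated; 1 listed gene is not reported here by name. Of the tested genes 21966 were matched to GENCODE 29 for positions. Promoter windows came from RefSeq (GRCh38.p14). Alternatives were other pseudocounts, filters, scalings, fits and left-out libraries. All 9 columns of values were used.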

Additional observations from a re-analysis of the deposited data

How the results depend on the processing

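The counts of the 8 genes that passed the test ran from 5 to 7 in Diff against U87 (6 as reported), 7 to 8 in GSCs against U87 (8) and 4 to 5 in Diff against GSCs (4) over 18 alternatives each. The counts called ran from 4 to 5 (5), from 6 to 7 (7) and stayed at 2, the lower ones coming from ASNS not being tested at a mean over 5 TPM and from ATF4 without GSCs replicate 3. No fold change of the 8 genes changed direction. No shift shared by same-numbered libraries was seen. Same-numbered libraries of different lines had deviations correlated at -0.042 to 0.049 and differently numbered ones at -0.058 to 0.054. The fit with a replicate block gave the same counts of 6, 8 and 4. These values cannot tell whether same-numbered libraries were prepared together. The call of PPP1R15A in GSCs against U87 was lost in 11 alternatives, among them no filter on low values (adjusted p = 0.0622), only the 2 lines compared (0.0758), median-ratio scaling (0.0619), no trend (0.0558) and 7 fits without 1 library (0.0516 to 0.121). The cause was not tested. With a filter at a mean over 5 TPM, ASNS was not tested. Other scalings moved the median of all genes by -0.049 to 0.081 on the log2 scale. Of the counts over lists, 730 stayed within 1.5 times and 80 did not, mostly in lists where few genes passed. In Diff against U87, the kinases that passed went from 2 to 1 without a trend, without any 1 Diff library and without U87 replicate 1 or 2. The eIF2 and eIF2B subunits went from 2 to 4 with only the 2 lines compared or without GSCs replicate 3, and the sestrins and TORC1 regulators from 4 to 2 with the stricter filter or without Diff replicate 1. Non-target synthetases went from 3 to 5 with only the 2 lines compared. In GSCs against U87, the kinase relays went from 4 to 1 or 2 in 11 alternatives (no filter, only the 2 lines, the replicate block, no trend, and without Diff replicate 2 or 3, GSCs replicate 1 or 2 or any 1 U87 library), and the phosphatase genes from 5 to 3 with no filter, with only the 2 lines compared, or without GSCs replicate 1 or 2 or U87 replicate 1 or 3. Non-target synthetases went from 5 to 3 without a trend or without U87 replicate 1. The causes of these moves were not tested. Low values such as those of ASNS in GSCs are limited by a depth that is unknown.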

Other observations

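The other branches of the unfolded protein response, governed by ATF6 and XBP1, moved in both directions. Of 12 genes, 5 fell and 2 rose in Diff against U87, where 20.5% of all tested genes fell and 18.9% rose, and 3 fell and 2 rose in GSCs, where 23.3% fell and 25.3% rose. Medians were -0.12 and -0.08. DNAJB9, a chaperone of the endoplasmic reticulum, rose by 1.16 in GSCs (adjusted p = 0.000161) and by 0.47 in Diff (adjusted p = 0.0266, lost in 4 of 18 alternatives). It averaged 9.8 TPM in U87, 23.2 in GSCs and 14 in Diff. Its tested neighbours on chromosome 7 were on the whole higher too, with medians of 0.78 in GSCs and 0.34 in Diff. In both comparisons DNAJB9 lay within the middle 50% of these neighbours. Whether its rise is shared with the region was not tested. XBP1 and the chaperone HSPA5, chosen after their values were seen, fell in both derived lines, XBP1 by 0.40 in GSCs and 0.92 in Diff and HSPA5 by 0.56 and 0.47.

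Relatives of the 8 genes did not all go their way. SESN3, the sestrin most often tied to FOXO factors, averaged 4.8 TPM in U87, 0.376 in GSCs and 0.199 in Diff, with log2 fold changes of -2.07 and -2.27. It was tested only through its level in U87, so these values are a description. Of 12 tested sestrins and TORC1 regulators, 3 rose and 1 fell in Diff, where 18.9% of all tested genes rose and 20.5% fell. In GSCs 4 rose and 2 fell, where 25.3% of all tested genes rose and 23.3% fell. SESN3 was the only 1 that fell in Diff and was 1 of the 2 in GSCs, so its falls in these counts carry the limit just given. TRIB1, a relative of TRIB3, rose where TRIB3 fell, from 14.7 TPM in U87 to 32.4 in GSCs and 40.2 in Diff, log2 fold changes of 1.09 and 1.39 (adjusted p = 1.75e-05 and 5.9e-06). CHAC2, the constitutive relative of CHAC1 and chosen after its values were seen, averaged 7.54, 7.42 and 8.3 TPM in U87, GSCs and Diff and passed in neither comparison against U87, with 95% intervals of the log2 fold change from -0.48 to 0.47 in GSCs and from -0.34 to 0.61 in Diff. Of 10 relatives by sequence, 3 rose and 2 fell in each derived line, with different genes falling in Diff and in GSCs. Over all tested genes 18.9% rose and 20.5% fell in Diff, and 25.3% rose and 23.3% fell in GSCs.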
